A study of Homo sapiens with 4 samples.

Results

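The genes described here carry LINC names, the symbols given to long noncoding RNAs that were annotated between protein-coding genes. They were measured in MCF10A, a human breast epithelial cell line that does not form tumours. Genes of the raw count table whose symbol is LINC followed by digits were selected on their measured counts, with 20 or more counts required in both libraries of wild type cells or in both libraries of HSF1-overexpressing cells. This gave 113 members out of 2239 LINC-named genes and 63856 genes in the table, whereas 1373 LINC-named genes held 0 counts in all 4 libraries. Of the members, 72 reached the minimum in all 4 libraries, 20 only in both wild type libraries and 21 only in both HSF1 libraries. The last 41 entered through one group, so a difference between the groups was built into most of them. Their values are given as a description, without a test of single members. Those with a mean of 20 or more counts are also part of a choice of genes blind to the groups, in which calls were counted.

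The 2 libraries labelled WT came from unmodified MCF10A cells, and the 2 labelled HSF1 overexpression (HSF1 cells below) came from MCF10A cells stably transduced with a lentivirus carrying the human HSF1 coding sequence in the pLVX-Puro vector. The study selected the transduced cells with puromycin, and cells with the empty vector were not analysed here. The presence of the vector, the drug selection and extra HSF1 therefore cannot be told apart. Neither can fewer cells of a type and less RNA per cell. The question was what a raised HSF1 level does to RNA levels in these cells, here the LINC-named genes. HSF1 itself was at 200 and 189 CPM (counts scaled to a common library size with TMM factors) in the WT libraries and 982 and 999 CPM in the HSF1 libraries, a log2 fold change of 2.35 (SE 0.148, edgeR adjusted p = 5.77e-55).

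Long intergenic noncoding RNAs are transcribed by RNA polymerase II, spliced and capped like messenger RNAs, but most are present at far lower levels and are more restricted to particular cell types. Some act on genes close to their own site of transcription, some act elsewhere in the nucleus or the cytoplasm, and for many no function is known. A few were later found to encode very small proteins and were renamed. HSF1 is the main transcription factor of the heat shock response. It binds as a trimer to heat shock elements, runs of the unit GAA and its inverted form TTC in alternating orientation.

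Library totals ran from 18688109 to 24184285 counts, and 2 libraries of a group differed by more than sampling noise (chi-square per degree of freedom 6.623 for WT and 8.041 for HSF1). The mammary epithelial marker list held KRT5, KRT14, KRT17, TP63, ITGA6, ITGB4, LAMB3, EPCAM, CDH1 and KRT18 (10 of 10 found). These summed to 18500 and 17900 CPM in WT and to 11000 and 11600 CPM in HSF1 cells, with 6 called lower and 3 higher. The list is not limited to basal cells. The study uses EPCAM with ITGA6 to tell luminal progenitors from basal cells, and CDH1 as an epithelial marker. The sum therefore does not separate basal from luminal cells. Fibroblast markers summed to 7.88 and 10.9 CPM in WT and 15.0 and 13.9 CPM in HSF1 cells, with 1 of the 2 tested genes called higher. Endothelial markers summed to 1.94 to 3.04 CPM in WT and 13.1 to 14.3 CPM in HSF1 cells. Blood cell markers summed to at most 0.484 CPM, with 2 of 5 at 0 in every library. Whether the shift in marker levels has a part in the results below was not tested.

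In the annotation, 100 members were long noncoding RNAs, 6 were transcribed pseudogenes and 7 are now listed as protein-coding. They lay on 23 chromosomes. A member was counted over a median of 2774 exonic bases (range 587 to 14763), and 16 members were counted as a single block. Although named intergenic, 13 overlapped the span of a protein-coding gene, 8 of them on its strand and 7 on the opposite strand, with 2 counted under both. Counted bases were shared with another gene for 43 members. The strand setting of the authors' counting is not given in the sources used here, so reads in shared bases, sense or antisense, cannot be assigned with certainty.

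Members were scarce in the libraries. Together they took 0.0874% and 0.0877% of the WT counts and 0.0721% and 0.0682% of the HSF1 counts, and 80 of the 113 had a median count under 100. A single gene, LINC03061, made up much of the total, with 33.3% and 31.7% of all member counts in WT and 10.9% and 8.24% in HSF1 cells. The summed level of the members was 909 and 882 CPM in WT and 694 and 681 CPM in HSF1 cells. Without LINC03061 the sums were 606 and 602 CPM in WT and 619 and 625 CPM in HSF1 cells, so the sum without it was not lower in HSF1 cells.

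**Figure D1:**
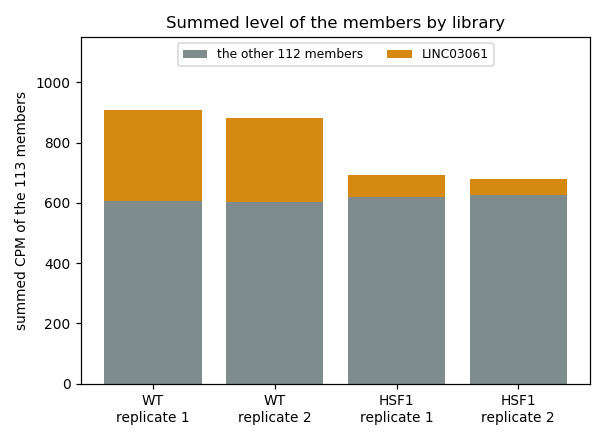
Bars give the summed CPM of the 113 members in each of the 4 libraries (vertical axis, CPM, from 0), split into LINC03061 and the other 112 members. The part without LINC03061 stays between 602 and 625 CPM, while the total is 882 or more in WT and 694 or less in HSF1 cells.

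Levels per kilobase of counted exon (CPM per kb) ranked LINC03061 first. This unspliced locus (chr13:109269634-109273838, plus strand, hg38) had 72.0 and 66.5 CPM per kb in WT and 18.0 and 13.4 in HSF1 cells. LINC01819 followed with 9.77 and 10.7 CPM per kb in WT and 25.1 and 24.3 in HSF1 cells, so that it stood above LINC03061 in the HSF1 libraries. Next came LINC00998 (SMIM30), at 14.7 and 15.0 CPM per kb in WT against 11.7 and 11, and LINC00493 (SMIM26), at 12.0 and 10.8 against 11.4 and 13. LINC01503, LINC00294, LINC00674 and LINC00116 (MTLN) completed the top 8. In the HSF1 libraries the levels of LINC00998 and LINC00493 overlapped. LINC00674, a transcribed pseudogene, had 11.3 and 9.31 CPM per kb in WT and 5.26 and 5.01 in HSF1 cells.

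Among the 72 members with 20 or more counts in all 4 libraries, 17 rose and 18 fell in HSF1 cells by edgeR's quasi-likelihood test at an adjusted p of 0.05, and 37 passed in neither direction. These are 23.6% and 25.0% of the members. Among all 12498 genes that met the same minimum, 33.1% were called higher and 34.4% lower, and over all 15830 tested genes the shares were 32.5% and 32.7%. Over all 72 the share called was below the background in both directions, but not in every subset. For the 26 members whose span overlaps no other gene the shares were 38.5% higher and 26.9% lower, and for the 38 that share no counted bases they were 28.9% and 36.8%. These sets are small and their shares lie near the background, which was not limited to genes free of overlap. DESeq2 called 9 of the 72 higher and 15 lower, and it called 49.7% of all genes with the same minimum in either direction. The median log2 fold change of the members was 0.04, against -0.01 for all genes with the same minimum.

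The precision of the members was lower than that of other genes, with a median SE of the log2 fold change of 0.229 against 0.123. Of the 32 members with a mean count of 100 or more, 13 were called higher (40.6%) and 10 lower (31.2%), against 34.5% and 37.0% of all genes in that range. Of the 40 with a mean count under 100, 4 were called higher (10%) and 8 lower (20.0%), against 24.7% and 19.5%. A member that was not called is therefore not shown to be unchanged. A change past 2-fold was called for 7 members that rose and 11 that fell, which can be read against 11.6% of genes called higher and 11.2% called lower past 2-fold in the background. Both HSF1 libraries lay above both WT libraries for 29 members (background 41.9%), below them for 25 (background 43.0%), and 18 overlapped. With 2 libraries against 2, an exact permutation test of a single gene could not go below p = 0.333, so each call rests on the spread that edgeR shares between genes.

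**Figure D2:**
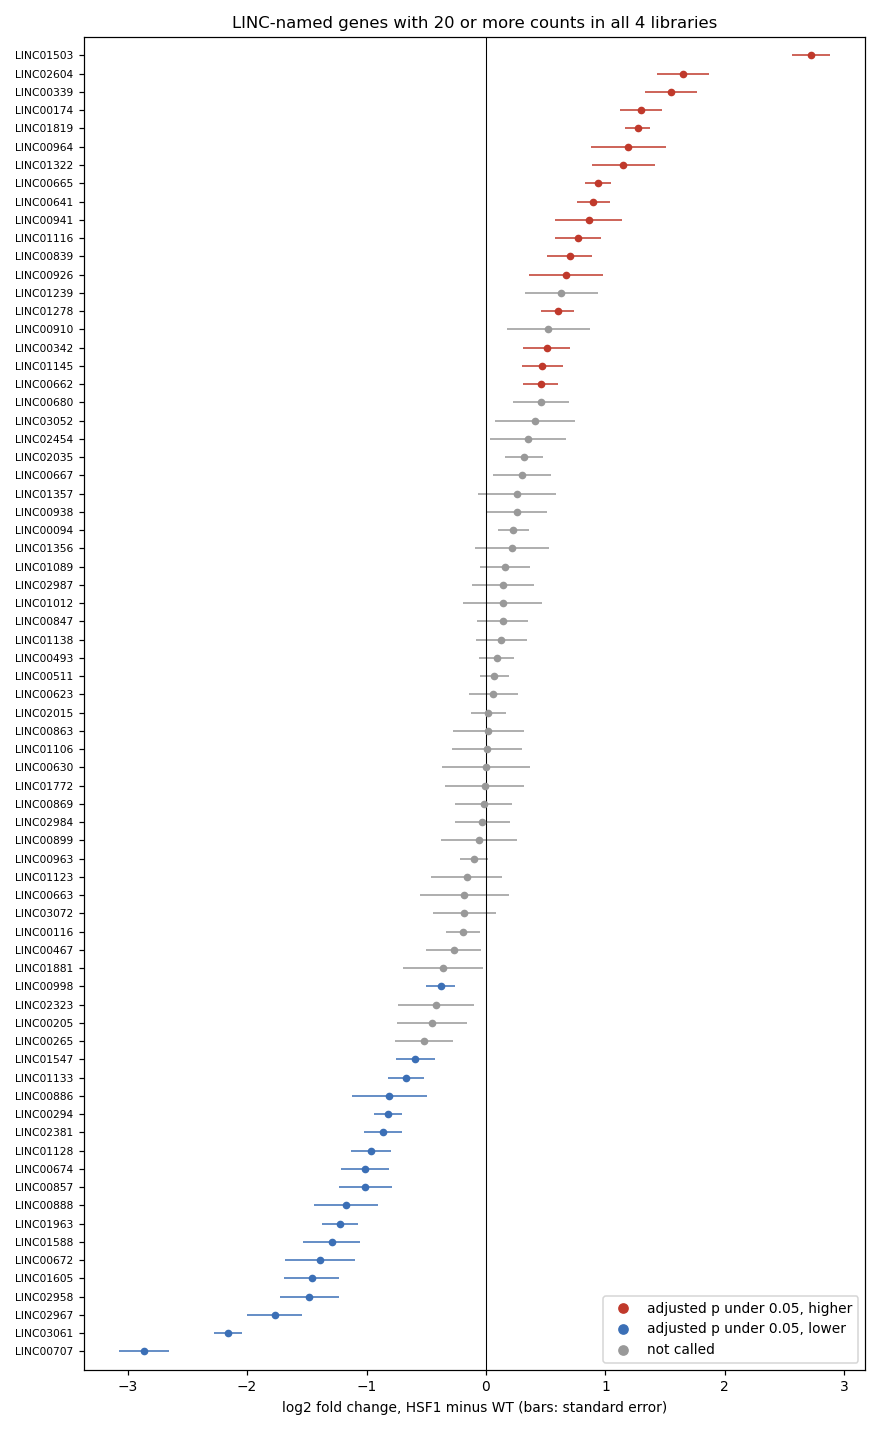
Each point is 1 of the 72 members with 20 or more counts in all 4 libraries, placed by its log2 fold change in HSF1 relative to WT cells (horizontal axis), and bars give the standard error. Red marks the 17 called higher, blue the 18 called lower and grey the 37 not called, from LINC00707 at -2.86 to LINC01503 at 2.72.

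A choice of genes blind to the groups was made as well. For the 99 LINC-named genes with a mean of 20 or more counts over the 4 libraries, 97 of which are members, 22 were called higher (22.2%) and 29 lower (29.3%), against 33.8% and 34.2% of all tested genes with such a mean. Past 2-fold, 11 were higher (11.1%) and 21 lower (21.2%), against 13.8% and 12.9%, so that falls past 2-fold took a larger share than in the background. Their median log2 fold change was 0.01.

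The largest fall among members tested was that of LINC00707, an RNA described in several tumour types as binding microRNAs. It lies at chr10:6779598-6842906 (plus strand, hg38), outside any protein-coding gene. Its level was 12.5 CPM in both WT libraries and 2.15 and 1.26 CPM in the HSF1 libraries, a log2 fold change of -2.86 (SE 0.209, adjusted p = 3.35e-41). The groups were far apart, although HSF1 replicate 2 was lower than replicate 1. Its nearest tested coding gene, PRKCQ, a protein kinase C family member, is 199297 bp away and was not called (log2 fold change -0.14, SE 0.267).

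LINC03061 fell from 303 and 279 CPM in WT to 75.6 and 56.2 CPM in HSF1 cells (log2 fold change -2.16, SE 0.118, adjusted p = 1.84e-72). It held 1116 or more counts in every library. MYO16, its nearest tested coding gene at 61627 bp, was not called (log2 fold change -0.93, SE 0.441). LINC02967, also counted as a single block, fell from 7.25 and 6.08 CPM to 2.55 and 1.36 CPM (log2 fold change -1.77, SE 0.233). APMAP, 29942 bp from LINC02967, was not called (0.19, SE 0.104). LINC02958 fell from 4.26 and 6.41 CPM to 1.67 and 2.11 CPM (log2 fold change -1.48, SE 0.246). Here too the lowest WT library was above the highest HSF1 library. LINC02958 lies 2688 bp from LAMA3, which encodes the alpha chain of an epithelial basement membrane laminin, on the opposite strand. LAMA3 was at 3840 and 3610 CPM in WT and 1620 and 1490 CPM in HSF1 cells (log2 fold change -1.26, SE 0.200).

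LINC01605 fell from 6.71 and 5.97 CPM to 2.55 and 2.06 CPM (log2 fold change -1.46, SE 0.228). Its nearest tested coding gene, the zinc finger gene ZNF703, was also called lower (-1.80, SE 0.140) at a distance of 141568 bp. LINC00672 (now LASP1NB) was at 2.24 and 4.95 CPM in WT and 1.31 and 1.26 CPM in HSF1 cells (log2 fold change -1.39, SE 0.295), with WT libraries that differ by more than those of the other falls named here. Its call was lost without WT replicate 2 (log2 fold change -0.81, edgeR adjusted p = 0.0524) and without HSF1 replicate 2 (adjusted p = 0.121). It starts 3398 bp past the end of LASP1, an actin-binding protein gene on the same strand, which fell by 1.10 on the log2 scale (SE 0.136). LINC01588 went from 4.85 and 5.92 CPM to 2.55 and 1.81 CPM (log2 fold change -1.29, SE 0.238), and LINC01963 from 17.7 and 17.1 CPM to 8.68 and 6.29 CPM (log2 fold change -1.22, SE 0.151). The genes nearest to these were VCPKMT and XRCC5, a subunit of the Ku DNA end-binding complex, and neither was called.

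Among rises, LINC01503 had the largest fold change. It has been described in squamous cell carcinomas as an RNA driven by a super-enhancer, and spans chr9:129332300-129359538 (plus strand, hg38). Its level was 4.64 and 3.28 CPM in WT and 23.8 and 28.5 CPM in HSF1 cells, a log2 fold change of 2.72 (SE 0.157, adjusted p = 1.23e-64). The lowest HSF1 library was thus well above the highest WT library. IER5L, its nearest tested coding gene at 154038 bp, rose by a log2 fold change of 0.39 (SE 0.132).

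LINC02604 rose from 2.24 and 2.69 CPM to 6.49 and 9.06 CPM (log2 fold change 1.65, SE 0.219). LINC00339 rose from 2.45 and 2.58 CPM to 7.01 and 7.80 CPM (log2 fold change 1.55, SE 0.220). LINC00174 rose from 4.42 and 5.44 CPM to 11.8 and 12.5 CPM (log2 fold change 1.30, SE 0.176). None of the 3 overlapped between groups, and the coding gene nearest to each moved the other way. CDC42, the small GTPase of cell polarity 21402 bp from LINC00339, had a log2 fold change of -0.46 (SE 0.122). TPST1, a tyrosine sulfotransferase gene that LINC00174 overlaps in antisense, fell from 13 and 13.3 CPM to 2.15 and 1.86 CPM (log2 fold change -2.70, SE 0.201). For TMEM248, close to LINC02604, the log2 fold change was -0.23 (SE 0.105).

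LINC01819 rose from 27.0 and 29.6 CPM to 69.4 and 67.1 CPM (log2 fold change 1.27, SE 0.107, adjusted p = 2.02e-31). ZFP36L2, an RNA-binding protein gene 182855 bp away, did not follow it (0.00, SE 0.115). LINC00964 went from 1.12 and 1.29 CPM to 2.63 and 2.87 CPM (log2 fold change 1.19, SE 0.314) and LINC01322 from 1.87 and 1.78 CPM to 3.98 and 4.13 CPM (log2 fold change 1.15, SE 0.264). Both held 35 counts or fewer in each WT library, and the call of LINC00964 was lost by DESeq2 (adjusted p = 0.084). ZNF572, 18970 bp from LINC00964, was called higher (1.09, SE 0.446). LINC00665, part of which encodes a micropeptide described in breast cancer cells, rose from 30.0 and 28 CPM to 54.6 and 56.4 CPM (log2 fold change 0.94, SE 0.108, adjusted p = 4.06e-17). ZFP14, 2735 bp from LINC00665, was not called (0.12, SE 0.226).

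**Figure D3:**
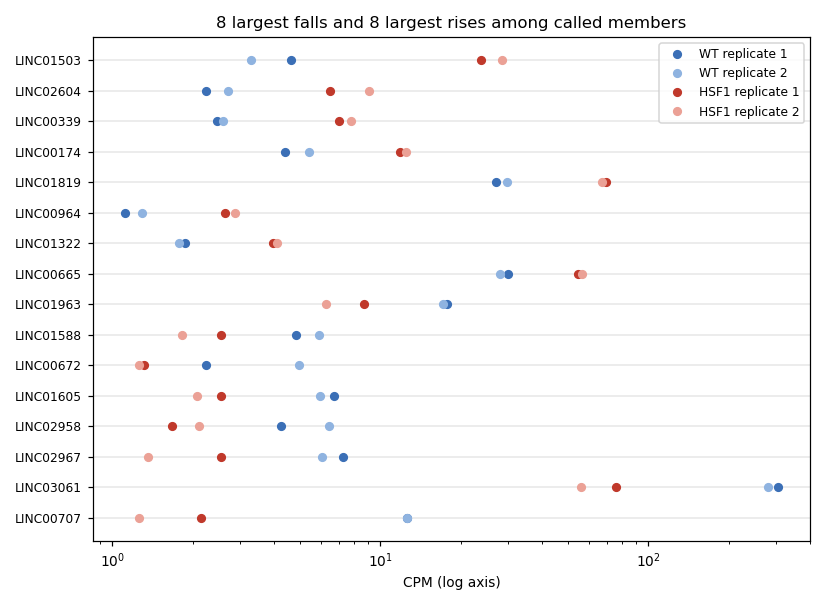
Levels of the 8 members with the largest fall and the 8 with the largest rise among those called, in CPM on a log axis, with 1 point per library (WT blue, HSF1 red). For every gene shown the 2 HSF1 libraries lie on one side of the 2 WT libraries, and LINC03061 (56.2 to 303 CPM) and LINC01819 (27.0 to 69.4 CPM) are the most abundant.

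Promoter windows were read from RefSeq (GRCh38.p14, 250 bases before to 50 bases after the start) for 82 members, and 31 had no window in the table. A member with several windows was given the one whose start is nearest to its start in the count table, so each counts once. Both strands were searched for the 8-letter heat shock element motifs GAANNTTC and TTCNNGAA, which read the same on both strands and can overlap each other. At least 1 of them occurred in 13 members, or 15.9%, against 13.5% of all 34796 windows. GAANNTTC was found in 8 members (6.79% of all windows) and TTCNNGAA in 7 (7.76% of all windows). A run of 3 alternating units occurred in 1 member, LINC00862, and in 0.491% of all windows. These shares are a description of letters in a window, and no binding was measured. The windows of 5 members are shown: LINC00665 and LINC01322, which are among the 8 largest rises, LINC00519 and LINC01730, described with the members met in HSF1 cells only, and LINC00862, which holds the longest run. They were picked with their values known, so their directions do not represent the 13. Capitals mark the matches, and each sequence is written 5′ to 3′ along the strand of the gene.
LINC00665, chr19:36331669-36331968, minus strand: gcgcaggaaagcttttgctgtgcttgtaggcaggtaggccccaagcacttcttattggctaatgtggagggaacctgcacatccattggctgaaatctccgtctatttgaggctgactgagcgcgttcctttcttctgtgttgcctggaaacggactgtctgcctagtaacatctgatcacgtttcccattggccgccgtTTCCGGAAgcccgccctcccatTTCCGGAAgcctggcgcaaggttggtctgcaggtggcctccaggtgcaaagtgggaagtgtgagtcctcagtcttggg
LINC01322, chr3:165206698-165206997, plus strand: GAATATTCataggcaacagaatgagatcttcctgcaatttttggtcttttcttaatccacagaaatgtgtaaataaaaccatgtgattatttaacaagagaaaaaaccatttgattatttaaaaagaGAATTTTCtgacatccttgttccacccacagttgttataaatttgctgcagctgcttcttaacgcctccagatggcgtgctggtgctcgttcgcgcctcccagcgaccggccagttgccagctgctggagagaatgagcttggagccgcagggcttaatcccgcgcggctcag
LINC00519, chr14:51328336-51328635, minus strand: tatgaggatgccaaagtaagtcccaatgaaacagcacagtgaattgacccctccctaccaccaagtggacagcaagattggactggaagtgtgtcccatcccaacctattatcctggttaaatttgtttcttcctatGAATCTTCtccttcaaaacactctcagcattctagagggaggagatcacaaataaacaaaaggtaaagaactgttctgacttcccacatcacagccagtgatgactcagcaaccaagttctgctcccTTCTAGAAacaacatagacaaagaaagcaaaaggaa
LINC01730, chr20:3808244-3808543, plus strand: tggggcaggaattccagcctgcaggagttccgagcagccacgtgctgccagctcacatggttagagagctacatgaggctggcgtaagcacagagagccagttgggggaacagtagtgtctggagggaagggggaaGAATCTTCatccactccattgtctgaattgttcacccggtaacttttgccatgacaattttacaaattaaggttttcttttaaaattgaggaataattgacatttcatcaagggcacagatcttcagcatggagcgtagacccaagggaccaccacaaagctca
LINC00862, chr1:200373743-200374042, minus strand: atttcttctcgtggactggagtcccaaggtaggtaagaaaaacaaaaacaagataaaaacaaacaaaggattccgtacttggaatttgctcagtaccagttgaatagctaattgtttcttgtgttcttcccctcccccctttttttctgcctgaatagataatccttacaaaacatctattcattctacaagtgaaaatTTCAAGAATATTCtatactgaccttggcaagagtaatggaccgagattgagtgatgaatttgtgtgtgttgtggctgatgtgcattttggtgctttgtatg

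The window of LINC00665 holds TTCNNGAA at positions -50 and -28 (the first base of the match, counted from the start). In LINC01322, GAANNTTC occurs at positions -250 and -123 from the start. LINC00519 has GAANNTTC at position -113 and TTCNNGAA at position 14, and LINC01730 has GAANNTTC at position -114. In LINC00862 the 2 motifs overlap to form the run of 3 units. The RefSeq start of LINC00862 is 26913 bp from the first counted base in the count table, so its window is not the start of the gene model that was counted. Among the members with a match, the same holds for LINC02742 (199622 bp), LINC02615 (135265 bp), LINC00116 (32873 bp) and LINC00997 (1993 bp). Of the 13 members with a match, 6 had 20 or more counts in all 4 libraries, and 2 of these, LINC00665 and LINC01322, were called. The minimum was met in HSF1 only by 4 others and in WT only by 3, among them LINC02615 (ratio of WT over HSF1 counts 4.49), whose window is not shown.

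In CPM, the 20 members that met the minimum in WT only were all lower in both HSF1 libraries than in both WT libraries. In raw counts HSF1 replicate 1 was above both WT libraries for LINC00854 (28 against 23 and 22) and LINC01410 (35 against 27 and 27). The ratio of summed normalized counts, WT over HSF1, had a median of 6.21 and ran from 1.3 to 36.7. It was 4 or more for 14 members and under 2 for 4. Intervals given with single ratios are 95% exact binomial intervals and cover counting error only. Libraries of a group differed by more than that, and the rule used these same counts. An interval that stays above 1 is therefore not a test of a member. The interval was not above 1 for 2 members, LINC00854 (0.846 to 2.07) and LINC01410 (0.918 to 2.09). Since the minimum required the WT counts to be high, these directions were fixed in part by the choice of genes.

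LINC02551 (chr11:130844191-130865561, minus strand, hg38) was the most abundant of these. It held 385 and 417 counts in WT and 33 and 19 counts in HSF1 cells, a ratio of 18.6 (95% interval 14 to 25.1). LINC00862 held 178 and 154 counts in WT and 12 and 5 in HSF1 cells, a ratio of 23.5 (14.5 to 40.9). LINC02009 held 94 and 73 counts against 10 and 11, a ratio of 9.58 (6.06 to 15.9). All 3 held 73 or more counts in each WT library and 33 or fewer in each HSF1 library. LINC02154 had 70 and 59 counts against 2 and 4, and LINC00702 had 63 and 71 against 8 and 12. LINC00942 had 60 and 62 counts against 0 and 4, with a ratio of 36.7 and an interval from 14 to 137. LINC00973 had 33 and 49 counts against 3 and 1, a ratio of 24.7 (9.28 to 92.7). Because the HSF1 counts of the last 2 are so few, the size of their ratios is poorly defined. DCBLD2, the tested coding gene nearest to LINC00973 at 79369 bp, was called lower (log2 fold change -1.71, SE 0.118).

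The 21 members that met the minimum in HSF1 only had smaller ratios. HSF1 over WT had a median of 2.85 and ran from 1.1 to 12.5, with 5 members at 4 or more and 9 under 2. For 7 of the 21 the 95% interval was not above 1, which again describes counting error and is not a test of the rest. Here too the choice of genes fixed the directions in part. The 4 libraries of LINC02976 overlapped in CPM, with 28 and 14 counts in WT and 29 and 28 in HSF1 cells.

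LINC00519 (chr14:51304416-51328386, minus strand, hg38) had the most counts of these. It held 8 and 14 counts in WT and 195 and 133 in HSF1 cells, a ratio of 12.4 (95% interval 8.04 to 20.0). LINC01637 held 5 and 5 counts in WT and 51 and 37 in HSF1 cells, a ratio of 7.31 (3.79 to 15.8). LINC01730 held 4 and 1 counts in WT and 35 and 21 in HSF1 cells, a ratio of 9.30 (3.76 to 29.8). Of the counted bases of LINC01730, 25.1% belong to another annotated gene as well, and the share of its reads from that gene is not known. LINC02188 had 2 and 2 counts against 35 and 25 (ratio 12.5, interval 4.62 to 47.2) and LINC01451 had 1 and 3 counts against 22 and 37 (ratio 12.2, interval 4.54 to 46.4). Both were at or under the floor of 3 counts per library in WT. FOXL1, 139931 bp from LINC02188, was called higher (log2 fold change 2.88, SE 0.727) at 0.654 CPM or less in every library. EGFL7, 41675 bp from LINC01451, was called lower (-1.32, SE 0.181), the opposite direction to LINC01451.

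**Figure D4:**
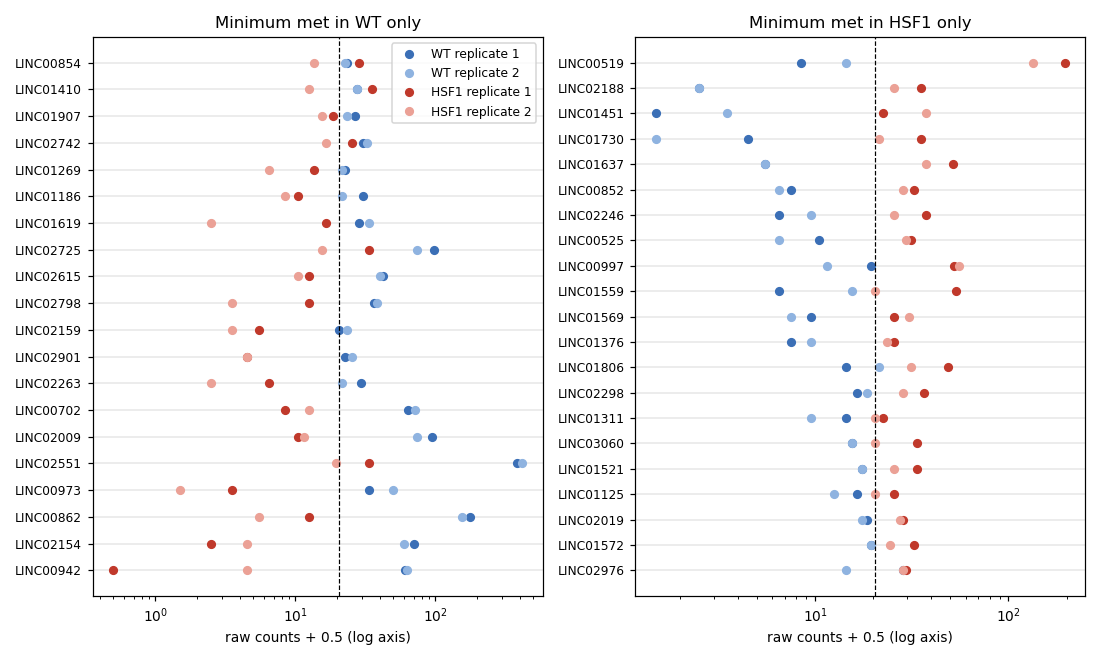
Raw counts plus 0.5 (log axis) in the 4 libraries for the 20 members that met the minimum of 20 counts (dashed line) in both WT libraries only, left, and the 21 that met it in both HSF1 libraries only, right. On the left, LINC02551 (385 and 417 counts in WT) stands far to the right of the rest, and LINC00519 (195 and 133 counts in HSF1) does so on the right.

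The members nearest to the minimum show how the choice works. Just inside were LINC01125 (16 and 12 counts in WT, 25 and 20 in HSF1), LINC01311 (14 and 9, 22 and 20) and LINC01559 (6 and 15, 53 and 20). Just outside were LINC00240 (10 and 8 counts in WT, 21 and 19 in HSF1), LINC01003 (17 and 7, 21 and 19) and LINC01560 (6 and 10, 19 and 21). A difference of 1 count in 1 library separates the 2 sets.

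A list of 35 LINC-named genes with a described role in epithelial or tumour cells held 20 members. Of the 17 with 20 or more counts in all 4 libraries, 8 rose, 4 fell and 5 were not called, where 33.1% of genes with this minimum were called higher and 34.4% lower. By DESeq2 the number called higher was 3, and without HSF1 replicate 2 it was also below 8. Both fits called fewer of all genes as well (49.7% in either direction by DESeq2). Below the minimum were 11 genes of the list, among them LINC00460 and LINC01614, and 4 had no row under their LINC name. In addition to LINC01503, LINC00339 and LINC00665, the rises were those of LINC00941, described as a brake on epidermal differentiation (log2 fold change 0.86, SE 0.279), LINC01116 (0.77, SE 0.193), LINC00839 (0.70, SE 0.188), LINC00342 (0.51, SE 0.196) and LINC00662 (0.46, SE 0.146). The 5 last named were changed by less than 2-fold, and none of the 5 was called by DESeq2. LINC00941 was at 2.13 and 1.51 CPM in WT and 3.43 and 3.17 CPM in HSF1 cells, so its groups did not overlap. The falls besides LINC00707 and LINC01605 were those of LINC00857, from 6.66 and 5.22 CPM to 3.39 and 2.52 CPM (log2 fold change -1.01, SE 0.221, not called without HSF1 replicate 2), and LINC01133, from 16.4 and 14.5 CPM to 8.92 and 10.7 CPM (log2 fold change -0.67, SE 0.148).

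Not called were LINC00511, one of the RNAs often described as raised in breast tumours, at 20.6 and 20.7 CPM in WT and 20.8 and 22.6 CPM in HSF1 cells (log2 fold change 0.07, SE 0.124), and LINC00963 (-0.10, SE 0.114). The SE of both was below the median of the members. LINC00467, LINC00847 and LINC01089 were not called either (-0.27, 0.14 and 0.16). LINC01089 shares counted bases with 3 other genes, and the largest overlap with a single one of them covers 48.7% of its bases. RHOF, on the same strand, is among the 3 and was called lower (log2 fold change -2.29, SE 0.161). The share of LINC01089 reads from these genes is not known. The list also held LINC00942 and LINC00973, met in WT only, and LINC00525, met in HSF1 only (ratio 3.11, interval 1.77 to 5.79).

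A list of 10 LINC names, written for genes renamed after small proteins, held 4 members, all annotated as protein-coding. Whether the other names on the list stand for a protein was not checked. In the edgeR fit 1 of the 4 fell, 3 were not called and 0 rose, with 0 higher also at an unadjusted p under 0.05 and by DESeq2. With 33.1% and 34.4% of all genes called higher and lower, so few genes say little about the list. LINC00998 (SMIM30), a small integral membrane protein gene, was at 27.9 and 28.5 CPM in WT and 22.3 and 20.9 CPM in HSF1 cells (log2 fold change -0.38, SE 0.119, adjusted p = 0.00245), a call that was lost by DESeq2 and without HSF1 replicate 2. LINC00116 encodes mitoregulin, a peptide of the inner mitochondrial membrane, and was at 15.4 and 13.5 CPM in WT and 12.3 and 13 CPM in HSF1 cells (log2 fold change -0.19, SE 0.143). LINC00493, whose product SMIM26 is also mitochondrial, was at 13.2 and 11.8 CPM in WT and 12.5 and 14.3 CPM in HSF1 cells (0.09, SE 0.145). LINC00094 (BRD3OS), which shares 21.4% of its counted bases with BRD3, had a log2 fold change of 0.23 (SE 0.129). Of all 5 coding members with 20 or more counts in all 4 libraries, 2 fell, the other being LINC00672.

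Many of these RNAs lie close to a coding gene. A tested protein-coding gene was found within 50 kb of 70 members, and of these 70 neighbours 16 were called higher and 32 lower. For all 12713 tested protein-coding genes 32.7% were called higher and 36.1% lower. Across the 70 pairs the log2 fold changes of member and neighbour had a Pearson's r of 0.33 and a Spearman's rho of 0.38, and 43 pairs (61.4%) had the same sign. For 10656 tested coding genes and their own nearest tested coding gene within 50 kb, r was 0.19, rho 0.14 and the share with the same sign 54.6%. All pairs share the same 4 libraries, and the 70 members include those chosen for being high in 1 group. In the 43 pairs whose member had 20 or more counts in all 4 libraries, r was 0.21, rho 0.32 and the share with the same sign 55.8%. For the 59 pairs whose spans do not overlap r was 0.38, and for the 11 that overlap it was 0.04.

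The pairs in this paragraph were picked after their values were seen, for their size or for a neighbour that did not follow. CDC25B, the phosphatase that starts mitosis, lies 2236 bp from LINC01730 on the same strand and rose from 51.5 and 49.9 CPM to 299 and 343 CPM (log2 fold change 2.66, SE 0.122). TFAP4, a transcription factor gene 3397 bp from LINC01569, rose from 3.30 and 3.71 CPM to 24.4 and 27.7 CPM (2.89, SE 0.161), while LINC01569 went from 9 and 7 counts to 25 and 30. AIFM3 was 429 bp from LINC01637 and rose by a log2 fold change of 1.59 (SE 0.304). On the side of the falls, the zinc finger gene ZNF281, 4235 bp from LINC00862, fell from 67.1 and 75.4 CPM to 32.1 and 28.4 CPM (log2 fold change -1.23, SE 0.105). CCRL2, a chemokine receptor-like gene 3527 bp from LINC02009, was at 0.799 and 0.915 CPM in WT and 0.199 and 0.252 CPM in HSF1 cells (-1.90, SE 0.541). In contrast, SNX19 beside LINC02551 and ERC1 beside LINC00942 were not called (-0.20, SE 0.106, and -0.10, SE 0.104), and DOCK3, 3193 bp from LINC02019, fell by 3.0 on the log2 scale (SE 0.225) while LINC02019 went from 18 and 17 counts to 28 and 27. Of the neighbours in this paragraph, only CCRL2 and ERC1 lie on the strand opposite to their member. LINC01730, LINC01569 and LINC00862 each start past the end of their neighbour. Whether reads from that neighbour reach them was not tested.

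**Figure D5:**
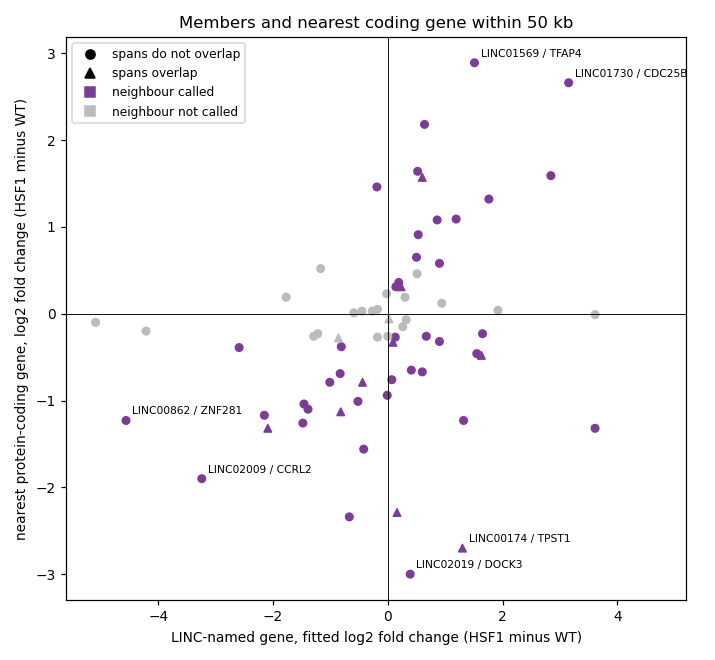
Log2 fold changes in HSF1 relative to WT cells for 70 members (horizontal axis) and the nearest tested protein-coding gene within 50 kb (vertical axis), where triangles are pairs with overlapping spans and purple marks neighbours called at an adjusted p of 0.05. Pairs with the same sign number 43 of 70, and 6 pairs far from the centre are named, among them LINC00174 and TPST1 at opposite signs. Fitted values of members with few counts in 1 group depend on the prior count of the fit.

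Starts facing away from each other within 1 kb were found for 4 members. LINC01547 starts 97 bp from FAM207A and fell (log2 fold change -0.59, adjusted p = 0.000719) while FAM207A had a log2 fold change of 0.01 (SE 0.125). LINC01125 and ACTR1B, a subunit of the dynactin complex, are 110 bp apart. ACTR1B fell from 67.1 and 63.9 CPM to 40.9 and 42.7 CPM (log2 fold change -0.65, SE 0.103), whereas LINC01125 had more counts in HSF1 than in WT cells. LINC01089 and the histone methyltransferase gene SETD1B, 274 bp apart, had log2 fold changes of 0.16 (not called) and -0.30 (adjusted p = 0.00637). The starts of LINC01521 and the zinc finger gene PATZ1 are 545 bp apart, and PATZ1 rose by a log2 fold change of 0.65 (SE 0.129) with LINC01521 at 17 and 17 counts in WT and 33 and 25 in HSF1 cells. Only in this last pair did both genes have the same sign. Between 1 and 5 kb there were 3 more pairs. LINC00857 and ANXA11, an annexin gene, lay 2138 bp apart and both were called lower (-1.01 and -0.79). LINC00938 and ARID2, a chromatin remodelling subunit gene, 1890 bp apart, had opposite signs and neither was called (0.26 and -0.15). LINC02615, met in WT only, had 42 and 40 counts in WT and 12 and 10 in HSF1 cells, and PGRMC2, 3922 bp away, was called lower (-1.17).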

How the data were processed

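RNA-seq libraries of MCF10A cells were grouped by their labels, 2 WT and 2 HSF1 overexpression. The authors aligned paired-end reads of ribosomal RNA-depleted total RNA to hg38 with HISAT2 2.0.5, processed them with SAMtools 1.13 and counted them per gene with featureCounts 1.6.5, and deposited raw counts for 63856 genes. The strand, overlap and multi-mapping settings are not given in the sources used here. A second deposited table of log2-like values, normalized by the authors with DESeq2 1.32.0, holds 7 of the members and was used only as an alternative. Ratio columns in that table were not used.

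Symbols came from GENCODE 44, replaced by the older symbol of the authors' table where RefSeq lists it as a synonym. Members and gene lists were chosen with earlier results of these data known. The quasi-likelihood test of edgeR 4.0.16 (R 4.3.3) was applied to the counts, with TMM factors, the default filterByExpr and the replicate number as a block, on all 15830 genes that passed the filter and adjusted by the Benjamini-Hochberg method. Calls were made at an adjusted p of 0.05. The script was tested on simulated data. SE is the log2 fold change divided by the square root of F. CPM uses TMM-normalized library sizes. A sum of counts of members met in 1 group was compared between groups with an exact Clopper-Pearson interval (95%). Totals of 18688109 to 24184285 counts per library set the precision, and intervals and floors cover counting error only. The study calls the 2 libraries of a group biological replicates, without saying how they were separated. The block follows the study's ratios, taken within replicate number. Same-numbered libraries deviated with a correlation of -0.0147 over all tested genes and -0.114 over 9672 genes above 8 CPM, and with the block edgeR's prior degrees of freedom were infinite (11.9 without it).

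Genes were named by rule: the 8 members highest per kb, the 8 largest rises and falls among called members whose groups did not overlap, members with at most 3 counts in each library of the other group, the 3 nearest the minimum on each side, members of the 2 lists, head-to-head pairs, and neighbours of the named rises, falls and low-count members. LINC02551, LINC00862, LINC02009, LINC02154, LINC00702, LINC00942, LINC00519, LINC01637, LINC01730, LINC01569 and LINC02019 and their neighbours were named after their values were seen. The alternatives were DESeq2 size factors, library size only, no filter, DESeq2 1.42.0, limma-voom 3.58.1, no block, each library left out, other minimums and distances, and members free of overlap.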

Additional observations from a re-analysis of the deposited data

How the results depend on the processing

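The limits are set by depth, since 80 of 113 members had a median count under 100, and by 2 libraries per group. DESeq2 with the block called 24 members, all within the 35 called by edgeR, but also fewer of all genes with 20 or more counts in all 4 libraries (49.7%). It called 9 members higher in place of 17 and 15 lower in place of 18. Of the LINC-named genes chosen without the groups, 12 were higher in place of 22 and 25 lower in place of 29. Among neighbours, 12 were higher in place of 16 and 21 lower in place of 32. The described list had 3 higher in place of 8 and 4 lower in both, and the small protein list 0 lower in place of 1. The cause was not tested. Each library was also left out in turn, in a fit without the block in which a lone library is assumed to vary like the other group. Fewer members were called in each of these fits, and so were fewer of all genes with 20 or more counts in all 4 libraries. Calls of members, of both lists and of all genes were fewest without HSF1 replicate 2.

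Other choices change how many genes are counted. A minimum of 50 counts in all 4 libraries left 37 genes, with 11 higher and 10 lower, and a call past 2-fold gave 7 and 11 of the 72. The 26 members whose span overlaps no other gene gave 10 higher (38.5%) and 7 lower (26.9%), and the 38 sharing no counted bases, an alternative chosen after seeing the data, gave 11 higher (28.9%) and 14 lower (36.8%). Neighbours within 500 kb gave 25 called higher in place of 16, and starts within 5 kb gave 7 head-to-head pairs in place of 4.

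Whether a replicate number marks a shared culture or day is not stated. With no replicate block 35 members were called, the same 35 as with it, and 68.4% of all genes with 20 or more counts in all 4 libraries. A crossed pairing, added after seeing the data, gave 18 higher and 19 lower, with 71.8% of all such genes called. Over 34 tested members named or listed, 7 of 204 values with all libraries kept passed the threshold no longer, all under DESeq2 (LINC00964, LINC00998, LINC00342, LINC01116, LINC00839, LINC00941 and LINC00662), as did 11 of 136 with a library left out (LINC00672, LINC00998, LINC00342, LINC00857, LINC00941 and LINC00662). No called member among the 34 changed direction, while LINC00493, LINC00847 and LINC00963, which were not called, changed sign in 4 values. Of the members described without a test, LINC02976 (log2 fold change 0.19) ran from -0.24 without WT replicate 2 to 0.77 without WT replicate 1.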
